A study of Phaseolus vulgaris with 18 samples.

Results

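The data describe how the change in pod wall RNA between 14 and 18 days after flowering (DAF) differed between a golden and a green line of common bean (Phaseolus vulgaris). The golden line, A18-1, has young pods that are green and become golden by market maturity, and the green line, Renaya, stays green up to ripening. The plants grew in a climate chamber with no treatment, and the 4 groups used are golden at 18 DAF, golden at 14 DAF, green at 18 DAF and green at 14 DAF, with 3 libraries each. These are 12 of the 18 libraries measured, the others being the pods of both lines at 10 DAF. The design text names pod walls and calls the replicates independent biological repeats, while a label field gives leaf and somatic cell, and the extraction text speaks of an adipose type. For each gene the interaction is the golden line's step (18 DAF over 14 DAF, log2) minus the green line's step, which equals the golden over green difference at 18 DAF minus the same difference at 14 DAF. It was tested in 22805 of the 25124 genes of the table. A positive value means that the golden line rose more, or fell less, than the green line. Each line is 1 genotype, so the lines may differ at many loci besides pod colour.

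As a bean pod nears its full length, cell division in the wall gives way to expansion, photosynthetic tissue matures and the wall later builds fibres and loses chlorophyll. Chlorophyll is made through the magnesium branch of tetrapyrrole synthesis and is taken apart through pheophytin and pheophorbide. In plants, NAC and WRKY transcription factors, ethylene and jasmonate accompany stress and ageing, and the circadian clock sets daily rhythms in a large share of transcripts. Gene descriptions below are the best Arabidopsis matches that the table gives, and roles named are those known from Arabidopsis.

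Total counts in the 12 libraries were between 50657126 and 74377200. Replicates correlated across genes, on log2 CPM (read counts scaled to library size), with 0.914 at the lowest (golden at 18 DAF, replicates 1 and 2) and 0.968 at the highest. Golden and green libraries among these 12 did not overlap on the first principal component of all 18 libraries, which held 40.7% of their variance. An AGAMOUS-like 8 gene (Phvul.009G203400, FRUITFULL, a factor of the fruit wall) lay between 30.1 and 222 FPKM in the 12 libraries. Other genes with this description were low, Phvul.008G027800 at 0 to 6.41 FPKM and Phvul.004G042450 at 0 to 0.227 FPKM. Across these libraries, 11 of 32 genes in the list of carpel and fruit factors were above 10 FPKM in all 12. Of the 32, 4 were at 0 and 12 stayed below 1 FPKM. Most of the 32 are described only as MADS-box or YABBY family proteins, so their count does not identify the tissue. In bulk RNA such as this, fewer cells of a type and less RNA per cell cannot be told apart.

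The interaction was called in 1684 of 22805 genes (7.38%) at an adjusted p under 0.05. It was positive in 760 genes (3.33%) and negative in 924 (4.05%), and 1381 of the called genes differed at least 2-fold between the steps. The limma fit of log2(FPKM + 1), which has no scaling between libraries beyond FPKM, split its calls into 628 positive and 1414 negative. The median interaction over all tested genes was 0.01 on the log2 scale. Among called genes the steps of the lines had opposite signs in 1541 and the same sign in 143. The interaction is the difference of these steps, so this split follows in part from the call and is no separate support.

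In most called genes the golden over green difference shrank. In size it was smaller at 18 than at 14 DAF in 1208 called genes (converging, 71.7%) and larger in 275 (diverging, 16.3%). In 201 (crossing, 11.9%) it changed sign with at least 1 log2 unit on both sides. Other changes of sign were counted by size as converging or diverging. Over all tested genes the shares were 63.8%, 33.4% and 2.86%. The median size of the line difference in called genes was 0.44 log2 units at 18 DAF and 1.36 at 14 DAF, and over all tested genes it was 0.40 at 18 DAF and 0.68 at 14 DAF. Both differences are terms of the interaction, so these medians describe the called genes and are no separate support. The comparison of lines itself called 15.0% of genes at 18 DAF and 41.5% at 14 DAF.

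**Figure D1:**
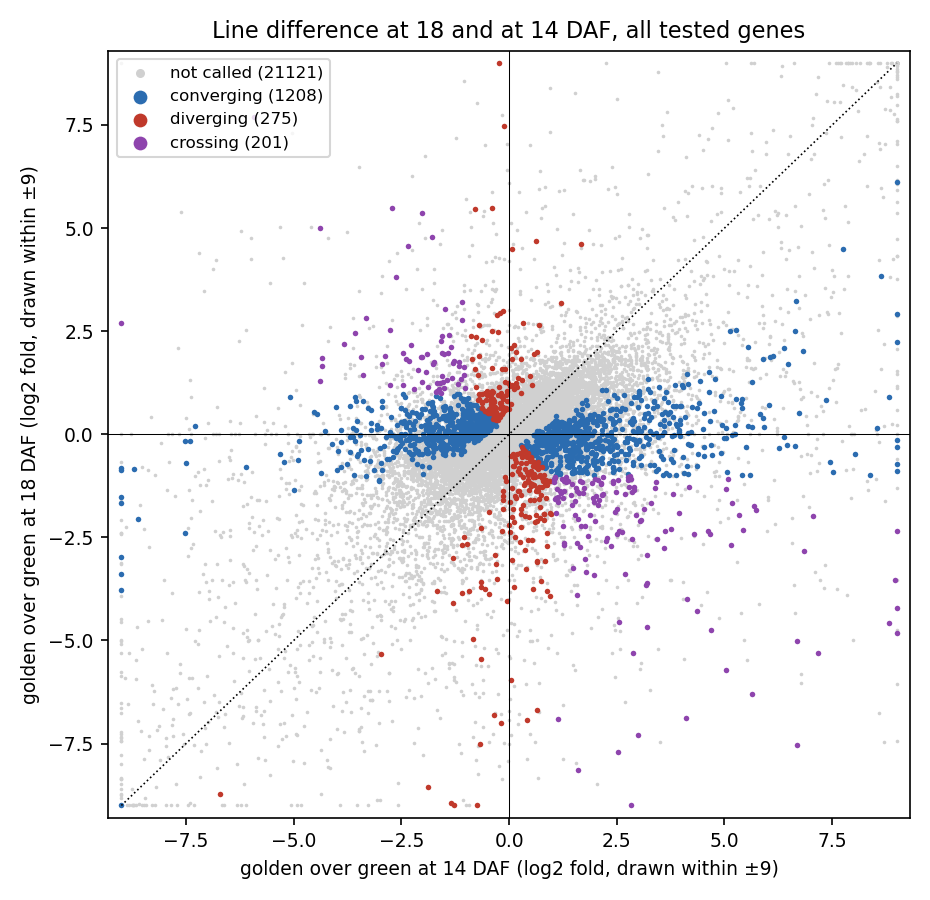
Each point is 1 of the 22805 tested genes, with the golden over green log2 fold at 14 DAF on the horizontal axis and at 18 DAF on the vertical axis, values beyond ±9 being drawn at ±9, and colours mark the 1208 converging, 275 diverging and 201 crossing genes. Called genes lie off the dotted line of equal difference, and most of them near the horizontal line where the difference at 18 DAF is 0.

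Both lines contributed. Of the 760 positive genes, 414 had only the golden rise called, 153 only the green fall, 21 both, and 172 neither. Of the 924 negative genes, 352 had only the golden fall called, 312 only the green rise, 61 both, 197 neither, 1 fell in both lines and 1 rose in both. The golden step was the larger in size in 965 called genes and the green step in 719. The golden step was called in 10.6% of all tested genes, 5.69% higher and 4.95% lower at 18 DAF. The green step was called in 6.95%, 3.95% higher and 3.01% lower.

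The number of calls depended on single libraries. Without replicate 2 of the golden line at 18 DAF there were 3614 calls, without replicate 3 of the golden line at 14 DAF 2932, and without replicate 3 of the green line at 18 DAF 2564. Leaving out another library lowered the count. It was 832 without replicate 1 of the golden line at 18 DAF and 1139 without replicate 3. It was 632 without replicate 1 of the golden line at 14 DAF and 605 without replicate 2. It was 1089 without replicate 1 of the green line at 18 DAF and 652 without replicate 2, and 808, 1052 and 995 without replicates 1, 2 and 3 of the green line at 14 DAF. In all 12 of these fits every gene of the 1684 that was tested kept the sign of its interaction. Those genes were chosen on the full set of libraries, which these fits largely share, so the kept signs are no separate support. DESeq2 on the same counts called 3680 genes, and an edgeR fit of the 12 libraries alone, without those of 10 DAF, called 235.

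Most genes of the clock list had a lower step in the golden than in the green line. The list covers only part of the clock, and clock genes with other descriptions were not in it. The list of clock genes held GIGANTEA and FKF1, which act together in day-length sensing, the pseudo-response regulators PRR5 and PRR7, repressors in the clock's loop, and a pair of genes for the RNA-binding protein CCR2, a clock output. Of its 10 tested members 7 were called negative and 0 positive, against 4.05% and 3.33% of all genes, and the median interaction was -1.19, against 0.01 over all genes. The unadjusted p was under 0.05 for 0 members in the positive direction, and DESeq2 called 0 positive and 7 negative. All 10 were called higher in the golden line at 14 DAF (20.4% of all genes) and 2 at 18 DAF (7.99% of all genes). The 7 negative calls became 4 without replicate 2 of the golden line at 14 DAF and 8 without replicate 2 of the golden line at 18 DAF.

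PRR5 (Phvul.009G045000) had 20.3, 16.4 and 28.3 FPKM in golden libraries at 18 DAF and 71.1, 97.6 and 67.9 at 14 DAF, against 11.9, 21.7 and 10.6 in green libraries at 18 DAF and 3.77, 4.33 and 6.86 at 14 DAF. Every golden library at 14 DAF was above all other libraries, and the 3 green libraries at 14 DAF were the lowest. The means were 21.6 ± 6.06 FPKM in the golden line at 18 DAF and 78.9 ± 16.3 FPKM at 14 DAF, against 14.7 ± 6.05 FPKM in the green line at 18 DAF and 4.99 ± 1.65 FPKM at 14 DAF (SD, n = 3 each). The golden step was -1.68 and the green step 1.61 on the log2 scale, both called (interaction log2 -3.30, SE 0.42, adjusted p = 0.0024). GIGANTEA (Phvul.004G088300) had 3.89, 3.92 and 5.85 FPKM in golden libraries at 18 DAF and 12.6, 17 and 8.04 at 14 DAF, against 2.24, 4.22 and 2.07 in green libraries at 18 DAF and 1.15, 0.898 and 1.52 at 14 DAF. It showed the same order, and golden and green libraries at 18 DAF overlapped (interaction log2 -2.57, SE 0.44, adjusted p = 0.00698).

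A more abundant GIGANTEA copy (Phvul.007G083500) had 54.4, 68.5 and 86.9 FPKM in golden libraries at 18 DAF and 118, 117 and 94.4 at 14 DAF, against 42.7, 68.9 and 54 in green libraries at 18 DAF and 34.7, 35.4 and 33.8 at 14 DAF. Its golden libraries at 14 DAF were again the highest (interaction log2 -1.18, SE 0.25, adjusted p = 0.0174). The blue-light receptor FKF1 (Phvul.002G321800) had 11.6, 10.2 and 9.75 FPKM in golden libraries at 18 DAF and 19.7, 26.8 and 23.8 at 14 DAF, against 4.91, 9.99 and 8.54 in green libraries at 18 DAF and 4.67, 3.33 and 3.56 at 14 DAF. The golden libraries at 14 DAF did not overlap with any others (interaction log2 -2.01, SE 0.40, adjusted p = 0.0129). A CCR2 gene (Phvul.009G023700) had an interaction of -2.01 (adjusted p = 0.0112), and a pair of loci counted together and described as PRR7 and PRR3 (Phvul.011G070600 and Phvul.011G070700) one of -1.003 (adjusted p = 0.0204). Of the other PRR5 genes, Phvul.009G258300 was called (interaction log2 -1.20, SE 0.32, adjusted p = 0.0367; called in 4 of 12 fits that leave out a library) and Phvul.010G119700 had -0.70 and adjusted p = 0.198. The hour of sampling is not given in the sources used here.

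**Figure D2:**
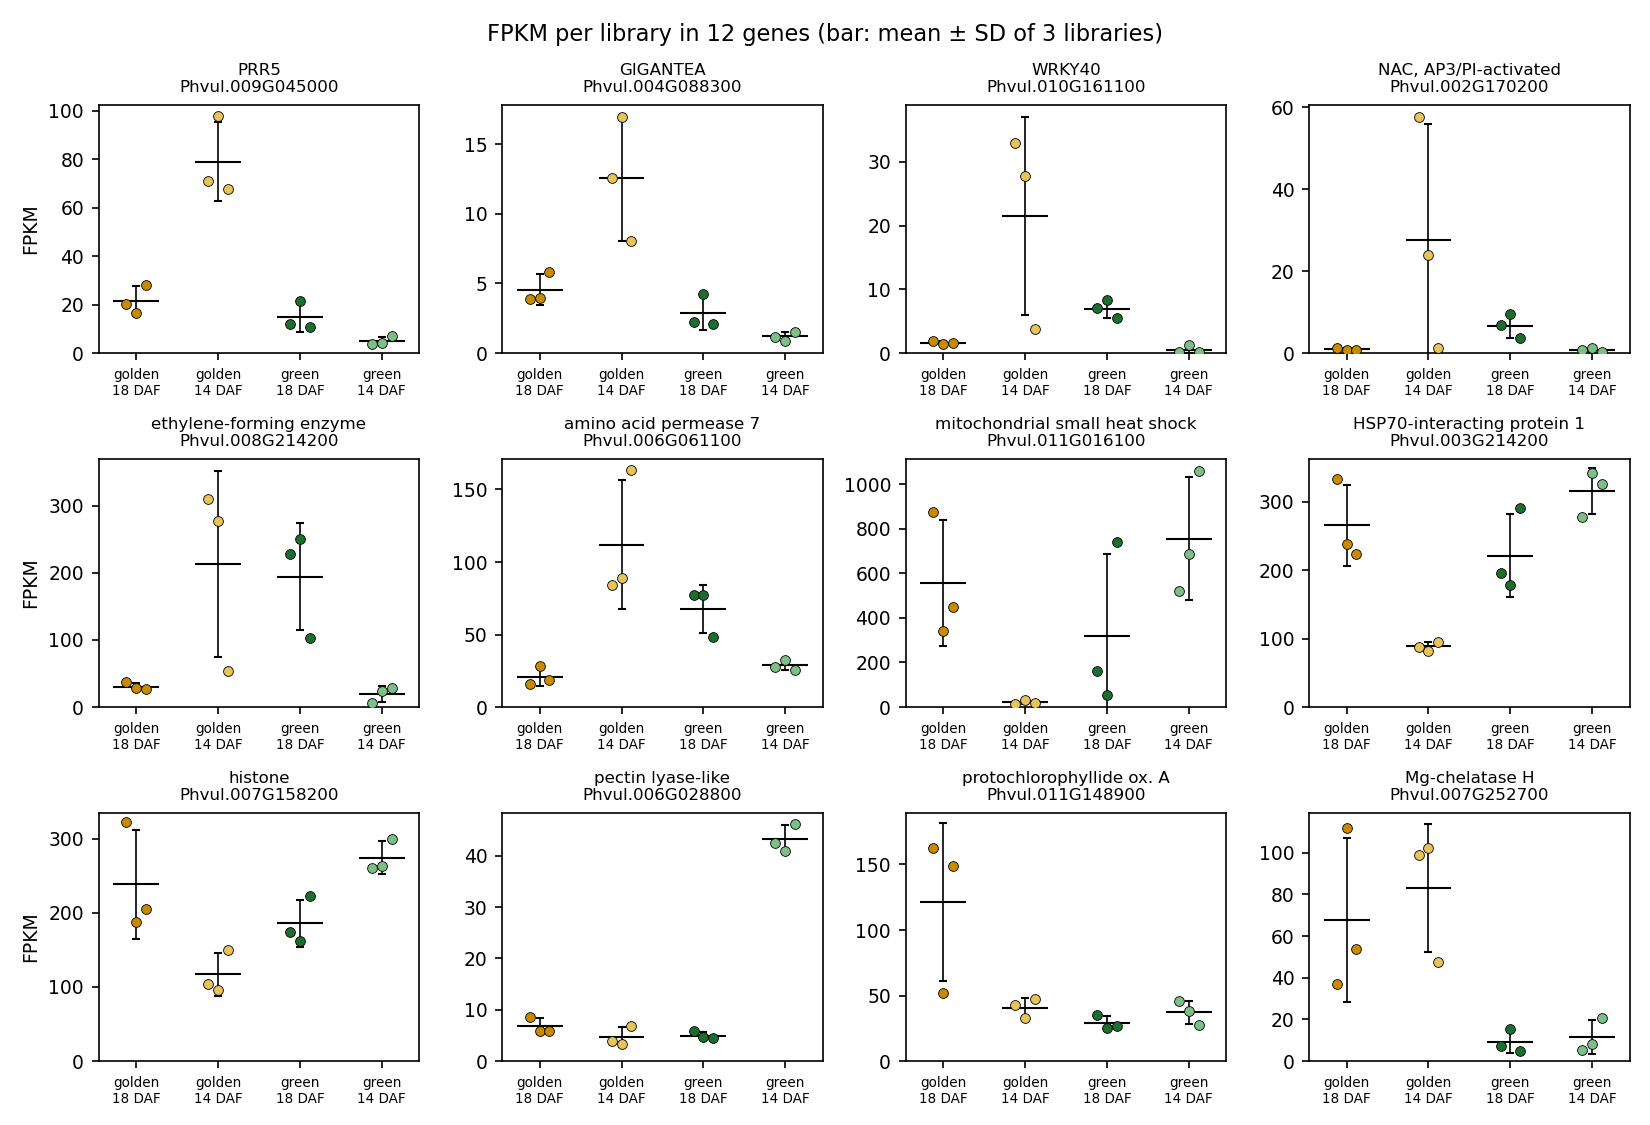
FPKM of 12 genes, with 1 point per library, a horizontal bar at the mean and error bars of 1 SD of 3 libraries, cut at 0, and groups ordered as golden at 18 and 14 DAF and green at 18 and 14 DAF. PRR5 and GIGANTEA were highest in the golden line at 14 DAF, where replicate 3 lay far below the other 2 for WRKY40, the NAC gene and the ethylene-forming enzyme. The small heat shock gene was lowest in the same group, the pectin lyase-like gene stood high only in the green line at 14 DAF, and the Mg-chelatase gene was higher in the golden line at both ages.

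The NAC and WRKY genes that were called in the interaction were mostly negative, and most members were not called. Of 73 tested NAC genes 11 were called negative (15.1%, against 4.05% of all genes) and 0 positive (against 3.33%), with a median interaction of -0.86. In the positive direction 3 NAC genes had an unadjusted p under 0.05 and DESeq2 called 1. Of 74 WRKY genes 9 were negative (12.2%, against 4.05%) and 1 positive (1.35%, against 3.33%), with a median of -1.16. Of the 11 NAC calls, 7 converged, 3 crossed and 1 diverged. The NAC count was 4 without replicate 1 of the golden line at 14 DAF and 16 without replicate 2 of the golden line at 18 DAF. The WRKY count ran from 1, without any 1 of replicate 3 of the golden line at 18 DAF, replicates 1 or 2 of the golden line at 14 DAF or replicate 1 of the green line at 14 DAF, to 11 without replicate 3 of the golden line at 14 DAF. In the fit of the 12 libraries alone 4 NAC genes were negative, and 1 WRKY gene was called in each direction.

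A NAC gene of the class activated by AP3 and PI, floral organ factors (Phvul.002G170200), had 1.31, 0.775 and 0.686 FPKM in golden libraries at 18 DAF and 57.7, 23.9 and 1.21 at 14 DAF, against 6.73, 9.42 and 3.73 in green libraries at 18 DAF and 0.704, 1.23 and 0.319 at 14 DAF. At 18 DAF all green libraries were above all golden ones, while at 14 DAF replicates 1 and 2 of the golden line were far above the green line and replicate 3 was at its level (interaction log2 -7.83, SE 1.49, adjusted p = 0.0116). A NAC-domain gene (Phvul.005G084500) had 2.27, 2.8 and 1.7 FPKM in golden libraries at 18 DAF and 97.8, 53.4 and 12.6 at 14 DAF, against 1.46, 5.5 and 2.28 in green libraries at 18 DAF and 0.212, 0.391 and 1.05 at 14 DAF. Here all golden libraries at 14 DAF stood above the rest, and the lines overlapped at 18 DAF (interaction log2 -6.92, SE 1.22, adjusted p = 0.0075). Both genes were called in all 12 fits that leave out a library.

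WRKY40, a repressor of defence genes in Arabidopsis (Phvul.010G161100), had 1.88, 1.38 and 1.61 FPKM in golden libraries at 18 DAF and 32.9, 27.8 and 3.81 at 14 DAF, against 7, 8.34 and 5.54 in green libraries at 18 DAF and 0.159, 1.2 and 0.21 at 14 DAF. The order of the lines turned round: green was higher at 18 DAF and golden at 14 DAF, without overlap at either age (interaction log2 -7.29, SE 1.31, adjusted p = 0.00873). The line difference itself was called at 14 DAF and had an adjusted p of 0.147 at 18 DAF. The positive WRKY gene was WRKY32 (Phvul.009G195200), with 5.75, 7.64 and 5.74 FPKM in golden libraries at 18 DAF and 6.51, 6.65 and 6.44 at 14 DAF, against 4.94, 3.44 and 5.04 in green libraries at 18 DAF and 12.2, 10.7 and 13.4 at 14 DAF. It fell in the green line, and its golden step had an adjusted p of 0.589 (interaction log2 1.55, SE 0.26, adjusted p = 0.00698). A weakly expressed member, NAC47 (Phvul.004G077400), was at 0 in every green library at 14 DAF, had 18, 7.77 and 0.52 FPKM in the golden libraries at that age, and was called in 4 of 12 fits that leave out a library.

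Ethylene genes were called in both directions. Of 47 ethylene genes 3 were positive (6.38%, against 3.33% of all genes) and 5 negative (10.6%, against 4.05%). The negative count ran from 3 to 9 when a library was left out, the highest without replicate 3 of the golden line at 14 DAF. The ethylene-forming enzyme, which makes ethylene from its precursor ACC (Phvul.008G214200), had 37.3, 27.8 and 26.3 FPKM in golden libraries at 18 DAF and 309, 277 and 54.4 at 14 DAF, against 227, 251 and 103 in green libraries at 18 DAF and 5.64, 24.4 and 29.1 at 14 DAF. Green was higher at 18 DAF in every library and golden at 14 DAF in every library, so the lines exchanged places (interaction log2 -5.97, SE 0.85, adjusted p = 0.00343). A gene of the EIN3 family of ethylene signalling factors (Phvul.008G207000) had 41.1, 46.4 and 40.8 FPKM in golden libraries at 18 DAF and 60.1, 49.8 and 42.7 at 14 DAF, against 92.5, 90.1 and 60.6 in green libraries at 18 DAF and 24.3, 35.3 and 38.3 at 14 DAF. It rose in the green line, and its golden step had an adjusted p of 0.901 (interaction log2 -1.42, SE 0.25, adjusted p = 0.00706).

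An ethylene-responsive element binding factor (Phvul.007G217800) moved in the other direction, with 26.8, 7.03 and 27.8 FPKM in golden libraries at 18 DAF and 0.727, 0.82 and 0.937 at 14 DAF, against 7.59, 3.99 and 6.8 in green libraries at 18 DAF and 4.29, 3.23 and 5.49 at 14 DAF. All golden libraries at 14 DAF were the lowest, and replicate 2 of the golden line at 18 DAF lay within the range of the green line (interaction log2 4.23, SE 0.85, adjusted p = 0.0135). In the jasmonate list 1 of 52 genes was positive (1.92%, against 3.33% of all genes) and 5 were negative (9.62%, against 4.05%). The negative count was 0 without replicate 2 of the golden line at 14 DAF and 14 without replicate 2 of the golden line at 18 DAF. The list includes lipoxygenases, of which the 13-lipoxygenases start jasmonate synthesis. Lipoxygenase 1, a 9-lipoxygenase in Arabidopsis (Phvul.010G135800), was the positive gene, with 12, 5.45 and 12.4 FPKM in golden libraries at 18 DAF and 0.654, 0.556 and 0.777 at 14 DAF, against 2.2, 2.84 and 3.75 in green libraries at 18 DAF and 7.11, 2.6 and 11.7 at 14 DAF. Golden libraries were above green ones at 18 DAF and below them at 14 DAF, without overlap at either age (interaction log2 5.30, SE 0.72, adjusted p = 0.00241). OPR3, an enzyme of jasmonate synthesis (Phvul.003G131600), had 37.2, 62.5 and 40.9 FPKM in golden libraries at 18 DAF and 75.5, 109 and 77.3 at 14 DAF, against 72.7, 72.5 and 49.2 in green libraries at 18 DAF and 29.5, 35.3 and 40.4 at 14 DAF (interaction log2 -1.62, SE 0.37, adjusted p = 0.0209).

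Defence genes were more often negative than all genes, by count. Of 422 tested members of the defence list 29 were negative (6.87%, against 4.05% of all genes) and 4 positive (0.95%, against 3.33%). The median interaction was -0.84. The 29 negative calls were resistance-type receptor genes (NB-ARC and LRR classes) and a pathogenesis-related gene, Phvul.009G135800 (-3.31). The negative count was 11 without replicate 2 of the golden line at 14 DAF and 49 without replicate 2 of the golden line at 18 DAF. A TIR-NBS-LRR gene (Phvul.002G098200) had 0.456, 0.319 and 0.569 FPKM in golden libraries at 18 DAF and 2.95, 3.48 and 1.21 at 14 DAF, against 0.479, 0.5 and 0.425 in green libraries at 18 DAF and 0.156, 0.243 and 0.22 at 14 DAF. It was high in the golden line at 14 DAF alone (interaction log2 -3.55, SE 0.61, adjusted p = 0.00698). The positive genes were chitinase A (Phvul.004G101500), a CAP gene (Phvul.003G148550), and dirigent-like genes Phvul.001G145600 (4.47) and Phvul.008G091600 (2.41). Chitinase A rested on uneven libraries, 61.3, 1.55 and 18.2 FPKM in golden at 18 DAF and 15.3, 329 and 189.8 FPKM in green at 14 DAF, and was called in 6 of 12 fits that leave out a library.

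The summed FPKM of the whole defence list was 9331 to 10889 in golden libraries at 18 DAF and 2688 to 5797 at 14 DAF, against 5229 to 10655 in green libraries at 18 DAF and 2913 to 5188 at 14 DAF. In both lines the mean was higher at 18 than at 14 DAF. A few abundant genes weigh in such a sum, whereas the median of -0.84 gives each gene the same weight.

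**Figure D3:**
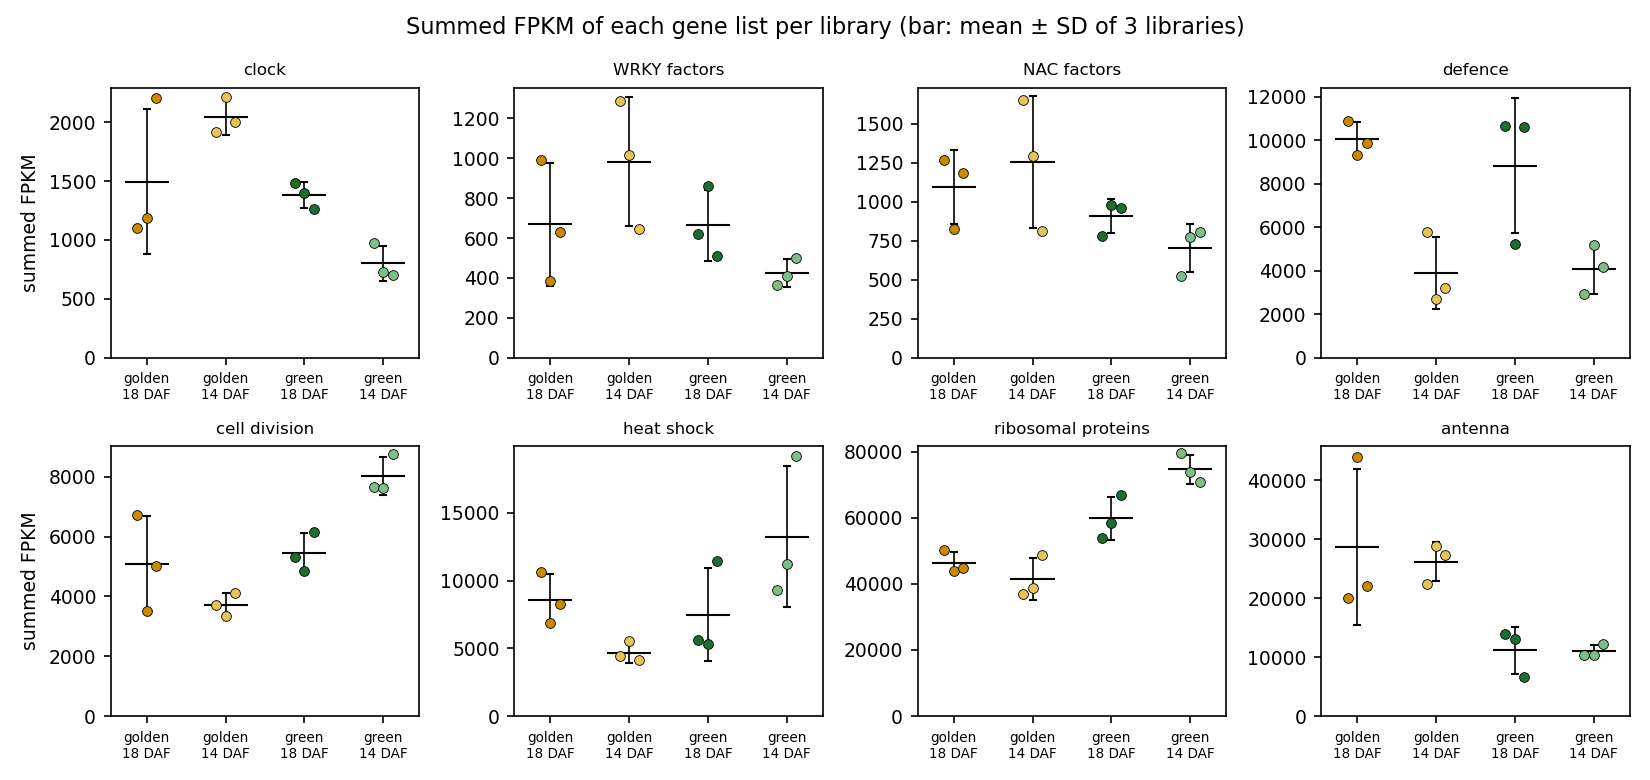
Summed FPKM of 8 gene lists, with 1 point per library, a bar at the mean and error bars of 1 SD of 3 libraries. The clock sum was lowest in green libraries at 14 DAF, the cell division and ribosomal protein sums were highest there, as was the mean of the heat shock sums, and the antenna sum was higher in golden than in green libraries at both ages.

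Several of the smallest p-values belonged to transporters and regulators that fell in the golden line and rose in the green line. Amino acid permease 7 (Phvul.006G061100), a plasma membrane carrier family, had 16, 28.1 and 18.4 FPKM in golden libraries at 18 DAF and 83.9, 88.6 and 164 at 14 DAF, against 77.1, 77 and 48.2 in green libraries at 18 DAF and 27.9, 32.4 and 25.7 at 14 DAF. Golden was below green at 18 DAF and above it at 14 DAF, without overlap (interaction log2 -3.50, SE 0.41, adjusted p = 0.00164). Another amino acid transporter (Phvul.010G003600) had 2.43, 2.73 and 3.79 FPKM in golden libraries at 18 DAF and 8.94, 9.71 and 9.13 at 14 DAF, against 17.6, 29.2 and 10.9 in green libraries at 18 DAF and 3.87, 9.57 and 5.79 at 14 DAF. The lines overlapped at 14 DAF and were apart at 18 DAF, with green higher (interaction log2 -3.08, SE 0.44, adjusted p = 0.00345). A polyol and monosaccharide transporter (Phvul.011G038700) crossed with 1.91, 2.39 and 2.11 FPKM in golden libraries at 18 DAF and 25.2, 11.2 and 4.77 at 14 DAF, against 17.4, 15.2 and 9.56 in green libraries at 18 DAF and 3.13, 3.32 and 2.02 at 14 DAF (interaction log2 -4.82, SE 0.64, adjusted p = 0.0024).

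A homeobox gene (Phvul.001G143500) had 1.52, 1.18 and 2.4 FPKM in golden libraries at 18 DAF and 11.6, 14.4 and 22.6 at 14 DAF, against 18.6, 26.8 and 13.5 in green libraries at 18 DAF and 6.75, 3.32 and 1.88 at 14 DAF. Golden was below green at 18 DAF and above it at 14 DAF, with no overlap at either age (interaction log2 -5.38, SE 0.63, adjusted p = 0.00164). Maternal effect embryo arrest 59 (Phvul.006G063800) had 4.33, 3.1 and 4.92 FPKM in golden libraries at 18 DAF and 32.1, 26.7 and 19.9 at 14 DAF, against 5.59, 9.34 and 4.45 in green libraries at 18 DAF and 2.2, 2.86 and 1.57 at 14 DAF. It was high in the golden line at 14 DAF alone (interaction log2 -4.06, SE 0.39, adjusted p = 0.000335). Beta glucosidase 11 (Phvul.008G097100) had 43.8, 51.8 and 59.9 FPKM in golden libraries at 18 DAF and 130.4, 123 and 98.4 at 14 DAF, against 32.7, 27 and 19.1 in green libraries at 18 DAF and 11.5, 11.7 and 13.8 at 14 DAF. Here golden stayed above green at both ages while the gap narrowed (interaction log2 -2.13, SE 0.26, adjusted p = 0.00217).

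A protein kinase gene (Phvul.002G229000) fell in golden and rose in green and had 11.6, 8.94 and 9.92 FPKM in golden libraries at 18 DAF and 22.9, 25.2 and 16.3 at 14 DAF, against 10.2, 11.8 and 10.02 in green libraries at 18 DAF and 2.76, 5.3 and 4.39 at 14 DAF (interaction log2 -2.30, SE 0.28, adjusted p = 0.00217). Its golden and green libraries overlapped at 18 DAF. A leucine-rich repeat kinase gene (Phvul.003G090000) fell to 1.12, 1.01 and 1.13 FPKM in golden libraries at 18 DAF, against 6.42, 4.93 and 4.17 FPKM at 14 DAF, and its green step had an adjusted p of 0.431 (interaction log2 -2.30, SE 0.27, adjusted p = 0.00164). A DnaJ-type co-chaperone gene (Phvul.006G207600) fell in golden too, with 26.3, 17.3 and 22 FPKM in golden libraries at 18 DAF, against 237, 193 and 144 FPKM at 14 DAF, and its green step had an adjusted p of 0.212 (interaction log2 -3.63, SE 0.49, adjusted p = 0.00241).

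Heat shock genes that were called in the interaction were mostly positive. Of 111 tested members 25 were positive (22.5%, against 3.33% of all genes) and 6 negative (5.41%, against 4.05%), with a median interaction of 0.48. The golden step was called higher in 20 members and lower in 6, with a median of 0.22. The positive calls were chaperones of the small, 21, 60, 70, 80 and 90 classes and the factor HsfA2, which drives chaperone genes. The negative calls were 3 other heat shock factors, Phvul.002G322700 (-1.79), Phvul.007G278200 (-1.84) and Phvul.006G171700 (-1.40), and 3 genes of the HSP20-like family. Of the 31 called, 24 converged, 5 crossed and 2 diverged. Golden was called lower in 4 members at 18 DAF (6.99% of all genes) and in 48 at 14 DAF (21.2% of all genes), where it was called higher in 9. The positive count was 8 without replicate 1 of the golden line at 14 DAF and 36 without replicate 3 of the green line at 18 DAF, and 2 in the fit of the 12 libraries alone.

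A mitochondrial small heat shock gene (Phvul.011G016100) had 876, 343 and 448 FPKM in golden libraries at 18 DAF and 15, 31.8 and 19.6 at 14 DAF, against 164, 53.4 and 739 in green libraries at 18 DAF and 519, 686 and 1057 at 14 DAF. Golden libraries at 14 DAF were the lowest of all, and the green libraries at 18 DAF spread widely, with replicate 3 highest (interaction log2 5.996, SE 1.03, adjusted p = 0.00703). HSP70-interacting protein 1, a co-chaperone (Phvul.003G214200), had 333, 239 and 224 FPKM in golden libraries at 18 DAF and 88.4, 82 and 95.7 at 14 DAF, against 195, 178 and 289.96 in green libraries at 18 DAF and 278, 342 and 326 at 14 DAF. Its golden libraries at 14 DAF lay together below all others, and the lines overlapped at 18 DAF (interaction log2 2.23, SE 0.29, adjusted p = 0.0024). HsfA8 (Phvul.002G322700) had 7.09, 7.38 and 9.94 FPKM in golden libraries at 18 DAF and 14.6, 20.7 and 14.5 at 14 DAF, against 6.86, 8.29 and 5.55 in green libraries at 18 DAF and 2.85, 4.54 and 3.74 at 14 DAF and moved in the opposite direction (interaction log2 -1.79, SE 0.31, adjusted p = 0.00732). The summed FPKM of the list was 6901 to 10613 in golden libraries at 18 DAF and 4111 to 5515 at 14 DAF, against 5354 to 11453 in green libraries at 18 DAF and 9314 to 19171 at 14 DAF.

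Cell division genes, most of them lower in the golden than in the green line at 14 DAF, were called in the interaction almost always in the positive direction, although most were not called. Of 153 cell division genes 13 were positive (8.5%, against 3.33% of all genes) and 1 negative (0.65%, against 4.05%). The median interaction was 1.01, and the interaction was above 0 in 130 genes. The median golden step was 0.28 and the median green step -0.65. Golden was called lower in 13 members at 18 DAF (6.99% of all genes) and in 92 at 14 DAF (21.2% of all genes). The positive count was 4 without any 1 of replicate 1 of the golden line at 18 DAF, replicate 1 of the golden line at 14 DAF or replicate 2 of the green line at 18 DAF. It was 57 without replicate 2 of the golden line at 18 DAF.

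Most of the positive cell division genes encode histones, the proteins around which DNA is packed. A histone gene (Phvul.007G158200) had 323, 188 and 205 FPKM in golden libraries at 18 DAF and 104, 96.2 and 150.4 at 14 DAF, against 174, 162 and 222 in green libraries at 18 DAF and 259.7, 263 and 299.97 at 14 DAF. Golden libraries at 14 DAF were the lowest and the lines overlapped at 18 DAF (interaction log2 1.73, SE 0.31, adjusted p = 0.00877). A further histone gene (Phvul.011G069501) had 71.5, 47.5 and 56.4 FPKM in golden libraries at 18 DAF and 36.8, 29.1 and 52.1 at 14 DAF, against 38.1, 46.2 and 52.3 in green libraries at 18 DAF and 101, 88.9 and 99.1 at 14 DAF. Green libraries at 14 DAF were the highest (interaction log2 1.79, SE 0.29, adjusted p = 0.00585). The other positive genes outside the histones were cyclin D3;2 (Phvul.003G240500, 2.30), the kinesins Phvul.011G141500 (2.19) and Phvul.008G274700 (2.92), and replication factor C 2 (Phvul.003G211700, 0.64). The negative gene was cyclin D1;1 (Phvul.003G234000), with 0.135, 0.199 and 0.274 FPKM in golden libraries at 18 DAF and 2.14, 0.453 and 1.47 at 14 DAF, against 2, 6.32 and 0.822 in green libraries at 18 DAF and 1.09, 1.4 and 1.26 at 14 DAF. The lines overlapped at 14 DAF and were apart at 18 DAF (interaction log2 -3.81, SE 0.88, adjusted p = 0.0224). Near-identical histone copies may have shared reads.

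Of 259 ribosomal protein genes 19 were positive (7.34%, against 3.33% of all genes) and 1 negative (0.39%, against 4.05%). The interaction was above 0 in 229, with a median of 0.56. The interactions ran from -2.07 to 6.80. The median golden step was 0.24 and the median green step -0.28, with 34 golden and 1 green steps called higher and 2 and 0 called lower. Golden was called lower in 25 members at 18 DAF (6.99% of all genes) and in 181 at 14 DAF (21.2% of all genes). The summed FPKM was 43987 to 50178 in golden libraries at 18 DAF and 36812 to 48661 at 14 DAF, against 54001 to 67025 in green libraries at 18 DAF and 70719 to 79480 at 14 DAF. Golden and green libraries did not overlap at either age. The positive count was 3 without replicate 1 of the golden line at 14 DAF and 79 without replicate 3. A 60S protein gene of the L16p/L10e family (Phvul.009G042100) had 67, 27.8 and 50.6 FPKM in golden libraries at 18 DAF and 18.6, 15.4 and 23.1 at 14 DAF, against 67.5, 36.7 and 51.8 in green libraries at 18 DAF and 51.8, 73.8 and 73.2 at 14 DAF (interaction log2 1.82, SE 0.38, adjusted p = 0.0161).

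**Figure D4:**
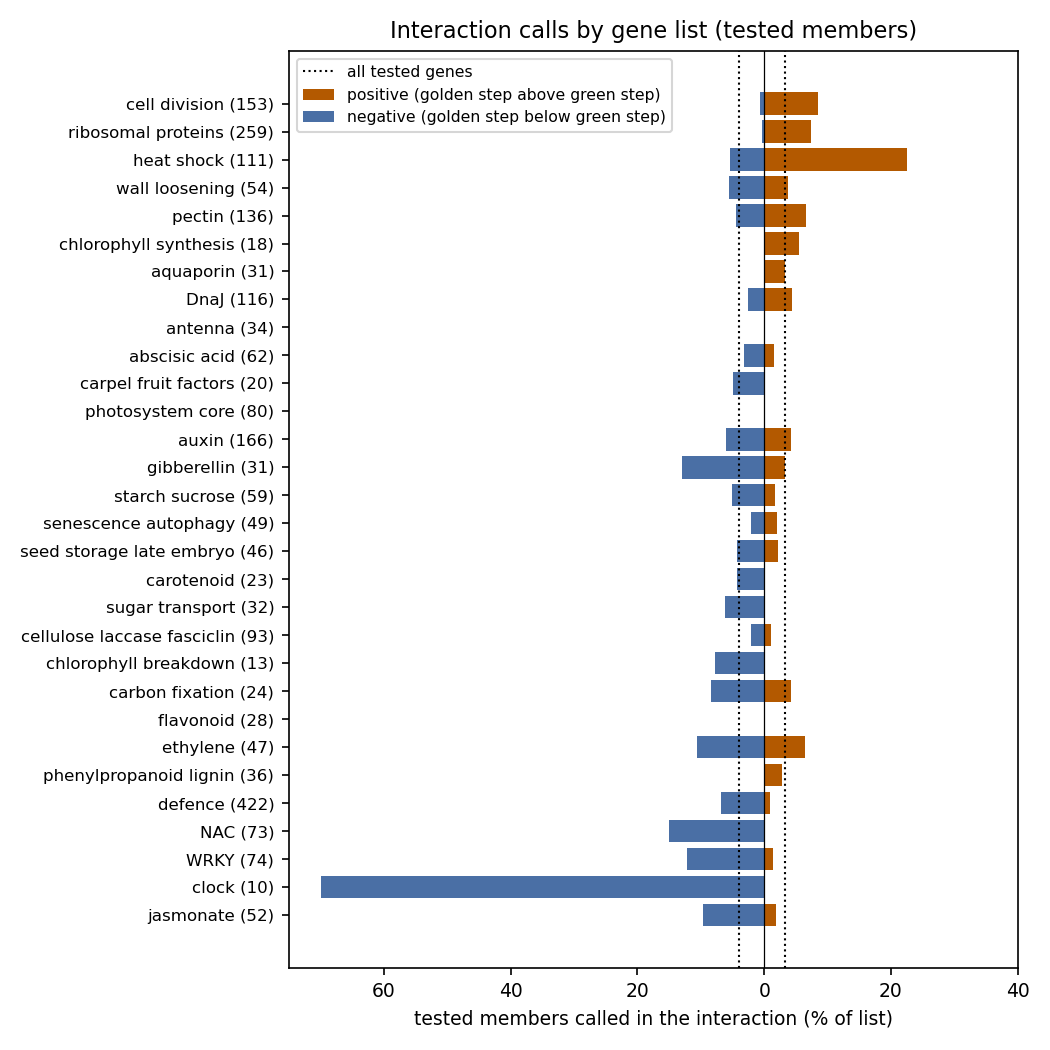
Share of the tested members of each of 30 gene lists that were called in the interaction, positive to the right and negative to the left, with the number of tested members in brackets and dotted lines at the shares of all tested genes, 3.33% and 4.05%. The clock list reached 70.0% negative, heat shock genes 22.5% positive, and the antenna and photosystem lists had no call.

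Pectin genes were called in both directions. Of 136, 9 were positive (6.62%, against 3.33% of all genes) and 6 negative (4.41%, against 4.05%). Leaving out 1 library gave 5 to 22 positive calls, the highest without replicate 3 of the golden line at 14 DAF, and 1 to 9 negative calls, the lowest without replicate 1 of the golden line at 18 DAF, replicate 2 of the golden line at 14 DAF or replicate 2 of the green line at 18 DAF. The 12 libraries alone gave 2 positive and 0 negative. A pectin lyase-like gene of the family that cuts or modifies pectin (Phvul.006G028800) had 8.53, 5.92 and 5.94 FPKM in golden libraries at 18 DAF and 4, 3.25 and 6.91 at 14 DAF, against 5.78, 4.62 and 4.45 in green libraries at 18 DAF and 42.5, 40.9 and 46.2 at 14 DAF. Green libraries at 14 DAF stood far above all others, which overlapped (interaction log2 3.79, SE 0.38, adjusted p = 0.000441). A gene of the pectin methylesterase and inhibitor family (Phvul.003G116900) had 37.1, 20.5 and 26.7 FPKM in golden libraries at 18 DAF and 8.31, 5.46 and 14.2 at 14 DAF, against 25.6, 13.4 and 28.7 in green libraries at 18 DAF and 69.7, 64 and 51.7 at 14 DAF (interaction log2 3.18, SE 0.52, adjusted p = 0.00645).

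Among 54 wall loosening genes 2 were positive (3.70%, against 3.33% of all genes) and 3 negative (5.56%, against 4.05%). The positive count was 0 without replicate 1 of the golden line at 14 DAF and 7 without replicate 2 of the golden line at 18 DAF. Expansins loosen walls during growth, and xyloglucan endotransglycosylases (XTH) cut and rejoin xyloglucan. Expansin A15 (Phvul.002G170300) had 90.3, 46 and 79.2 FPKM in golden libraries at 18 DAF and 16.9, 12 and 29.4 at 14 DAF, against 184, 56.7 and 215 in green libraries at 18 DAF and 196, 265 and 243 at 14 DAF. Golden libraries at 14 DAF were the lowest (interaction log2 2.63, SE 0.60, adjusted p = 0.0212). XTH6 genes moved the opposite way. XTH6 (Phvul.003G137600) had 1.35, 1.36 and 2.5 FPKM in golden libraries at 18 DAF and 81.5, 85.3 and 7.16 at 14 DAF, against 21.9, 65 and 4.18 in green libraries at 18 DAF and 1.37, 7.39 and 1.01 at 14 DAF. Replicate 3 was below the other 2 in the golden line at 14 DAF and in the green line at 18 DAF (interaction log2 -8.12, SE 1.57, adjusted p = 0.0121). A second XTH6 gene (Phvul.009G233200) had 29, 85.9 and 59.2 FPKM in golden libraries at 18 DAF and 932, 234 and 215 at 14 DAF, against 516, 433 and 87.3 in green libraries at 18 DAF and 0.697, 48 and 5.39 at 14 DAF. Golden and green libraries did not overlap at 18 or at 14 DAF (interaction log2 -7.09, SE 1.54, adjusted p = 0.0185).

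The list of cellulose, laccase and fasciclin genes was taken by description, and only some of its members mark fibre and xylem walls. Of its 93 tested genes 1 was positive (1.08%, against 3.33% of all genes) and 2 were negative (2.15%, against 4.05%). Leaving out 1 library gave 0 to 6 positive calls, the highest without replicate 3 of the golden line at 14 DAF, and 0 to 12 negative calls, the highest without replicate 2 of the golden line at 18 DAF, and DESeq2 called 4 and 10. Cellulose synthase A4, an enzyme of secondary walls (Phvul.009G242700), had 4.91, 23.9 and 7.17 FPKM in golden libraries at 18 DAF and 9.51, 36.9 and 27.6 at 14 DAF, against 74.5, 17.6 and 10.9 in green libraries at 18 DAF and 0.922, 3.4 and 5.79 at 14 DAF. The high green level at 18 DAF was replicate 1 alone, and the gene was called in 2 of 12 fits that leave out a library (interaction log2 -4.25, SE 1.22, adjusted p = 0.0473). A COBRA-like gene (Phvul.008G029000) had the same high library, 49, 6.27 and 3.83 FPKM in the green line at 18 DAF (interaction log2 -4.98, SE 1.44, adjusted p = 0.0492). It was called in 4 of 12 such fits.

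Auxin genes were called in both directions, in shares near those of all genes. Of 166, 7 were positive (4.22%, against 3.33%) and 10 negative (6.02%, against 4.05%). Leaving out 1 library gave 5 to 16 positive calls, the highest without replicate 2 of the golden line at 18 DAF, and 3 to 14 negative calls, the highest without replicate 3 of the green line at 18 DAF. Auxin response factor 4 (Phvul.005G136900) had 14.5, 11.9 and 14.8 FPKM in golden libraries at 18 DAF and 6.3, 6.85 and 10.6 at 14 DAF, against 9.81, 5.46 and 8.15 in green libraries at 18 DAF and 17.8, 24.7 and 34.1 at 14 DAF. Golden was higher at 18 DAF and lower at 14 DAF, without overlap at either age (interaction log2 2.61, SE 0.35, adjusted p = 0.00241). The auxin efflux carrier gene Phvul.002G117700 fell in golden and rose in green, with 1.92, 2.12 and 3.8 FPKM in golden libraries at 18 DAF and 16.9, 10.6 and 10.3 at 14 DAF, against 7.05, 7.42 and 2.56 in green libraries at 18 DAF and 0.459, 1.26 and 0.836 at 14 DAF (interaction log2 -4.87, SE 0.89, adjusted p = 0.00935). A GH3 gene, of a family that links auxin and other hormones to amino acids (Phvul.010G111400), had 15.2, 17.7 and 22.8 FPKM in golden libraries at 18 DAF and 35.5, 30.1 and 31.1 at 14 DAF, against 38.2, 36.1 and 28.3 in green libraries at 18 DAF and 18.5, 23.1 and 18.7 at 14 DAF (interaction log2 -1.42, SE 0.25, adjusted p = 0.00703). Response regulator 9, of the cytokinin pathway (Phvul.009G127000), had 44.4, 62 and 40.3 FPKM in golden libraries at 18 DAF and 5.51, 15.4 and 10.7 at 14 DAF, against 19.8, 16.1 and 20.5 in green libraries at 18 DAF and 48.4, 34.9 and 35.9 at 14 DAF. The lines exchanged places without overlap (interaction log2 3.46, SE 0.44, adjusted p = 0.0024).

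Of 31 gibberellin genes 1 was positive (3.23%, against 3.33% of all genes) and 4 negative (12.9%, against 4.05%). Of the 4 negative genes 3 were gibberellin 2-oxidases, which inactivate the hormone. Leaving out 1 library gave 1 to 5 negative calls, the lowest without replicate 2 of the golden line at 14 DAF or replicate 2 of the green line at 18 DAF. Gibberellin 2-oxidase 8 (Phvul.002G049000) was at 0 in all green libraries at 14 DAF and had 1.31, 2.38 and 8.08 FPKM in golden libraries at that age. At 18 DAF it had 0.0895, 0.109 and 0.118 FPKM in golden and 0.0645, 1.87 and 0 FPKM in green libraries. The others were Phvul.006G165000 (-4.17, adjusted p = 0.044) and Phvul.005G061000 (-5.37, adjusted p = 0.0455). A gibberellin-regulated gene (Phvul.009G181500) had 65.2, 26.2 and 75.9 FPKM in golden libraries at 18 DAF and 339, 387 and 699 at 14 DAF, against 902, 801 and 1370 in green libraries at 18 DAF and 1553, 1428 and 432 at 14 DAF. Golden was below green in every library at 18 DAF, and at 14 DAF the lines overlapped through replicate 3 of the green line (interaction log2 -2.81, SE 0.68, adjusted p = 0.027). The positive gene, also gibberellin-regulated (Phvul.007G042400), had 14.3, 2.3 and 3.16 FPKM in golden libraries at 18 DAF and 0.859, 0.764 and 4.27 at 14 DAF, against 1.6, 2.73 and 2.51 in green libraries at 18 DAF and 25.9, 33.8 and 61.7 at 14 DAF (interaction log2 5.99, SE 1.03, adjusted p = 0.00698).

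**Figure D5:**
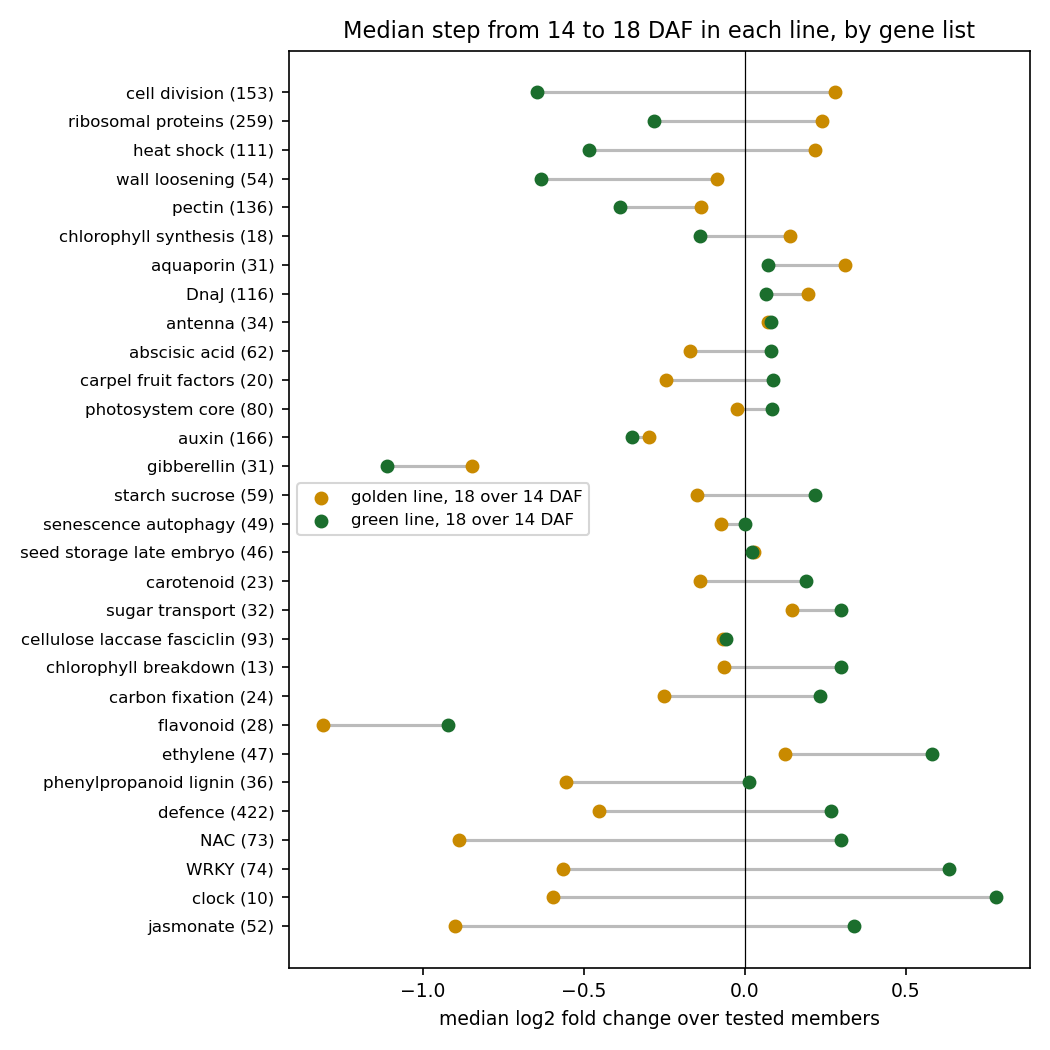
Median log2 step from 14 to 18 DAF over the tested members of each of 30 gene lists, with 1 dot for the golden and 1 for the green line, ordered by median interaction. Genes of the clock list had medians of -0.60 in the golden and 0.78 in the green line, and cell division genes 0.28 and -0.65. The antenna dots nearly coincide.

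The genes of the photosynthetic apparatus differed between the lines at both ages, and few were called in the interaction, against 7.38% of all genes. Among 34 antenna genes, which bind chlorophyll in the light-harvesting complexes, 0 were called by edgeR (1 positive and 0 negative at an unadjusted p under 0.05; 1 positive by DESeq2) and the smallest adjusted p was 0.118. Golden was called higher in 29 of them at 18 DAF (7.99% of all genes) and in 30 at 14 DAF (20.4% of all genes). The median differences were 1.72 and 1.73. Their summed FPKM was 20004 to 43968 in golden libraries at 18 DAF and 22439 to 28817 at 14 DAF, against 6553 to 13930 in green libraries at 18 DAF and 10348 to 12217 at 14 DAF. All golden libraries were above all green libraries, although golden libraries at 18 DAF spread widely, with replicate 2 the highest. Among 80 photosystem core genes 0 were called by edgeR (1 in each direction at an unadjusted p under 0.05; 0 by DESeq2), and golden was higher in 56 at 18 DAF and in 57 at 14 DAF. Without replicate 2 of the golden line at 18 DAF, 9 core genes were negative and 1 positive, when 1859 of all genes were negative and 1755 positive. A missed threshold does not show that the steps were equal. The largest interaction was 2.10 log2 units in size in the antenna list and 2.37 in the core list.

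In chlorophyll synthesis 1 of 18 genes was called, in the positive direction (5.56%, against 3.33% of all genes). It was protochlorophyllide oxidoreductase A, the light-dependent step before chlorophyll (Phvul.011G148900), with 163, 52 and 149 FPKM in golden libraries at 18 DAF and 42.4, 32.6 and 47.5 at 14 DAF, against 35.3, 25.3 and 27 in green libraries at 18 DAF and 45.7, 37.9 and 27.9 at 14 DAF. Golden libraries at 18 DAF were above all others, replicate 2 by the least, and the lines overlapped at 14 DAF (interaction log2 2.05, SE 0.48, adjusted p = 0.0244). It was called in 7 of 12 fits that leave out a library. Its other copy (Phvul.005G083700) had 629.99, 584 and 553 FPKM in golden libraries at 18 DAF and 291, 368 and 467 at 14 DAF, against 466, 359 and 383 in green libraries at 18 DAF and 377, 376 and 382 at 14 DAF. The golden step was called there (adjusted p = 0.0138) and the interaction was not (interaction log2 0.71, SE 0.26, adjusted p = 0.105).

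The large subunit of magnesium chelatase, which commits protoporphyrin to chlorophyll, had genes called higher in the golden line at both ages. Neither gene was called in the interaction, which does not show that their steps were equal. Its gene Phvul.007G252700 had 37.1, 112 and 53.9 FPKM in golden libraries at 18 DAF and 99.1, 102 and 47.7 at 14 DAF, against 7.47, 15.3 and 5.06 in green libraries at 18 DAF and 5.4, 8.13 and 20.6 at 14 DAF. Every golden library was above every green one, by a log2 difference of 3.03 at 18 DAF and 2.88 at 14 DAF (interaction log2 0.16, SE 0.72, adjusted p = 0.929). Its other gene (Phvul.001G132200) had 115, 202 and 154 FPKM in golden libraries at 18 DAF and 154, 146 and 120.04 at 14 DAF, against 62, 58.8 and 30.7 in green libraries at 18 DAF and 40.4, 48.1 and 67 at 14 DAF, again without overlap (interaction log2 0.35, SE 0.37, adjusted p = 0.591). Glutamyl-tRNA reductase, the first committed enzyme of tetrapyrrole synthesis, had the interaction 0.70 in Phvul.008G185100 (adjusted p = 0.222), -0.41 in Phvul.009G146100 (adjusted p = 0.267) and -0.11 in Phvul.002G216100 (adjusted p = 0.952).

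Of 13 chlorophyll breakdown genes 1 was called, in the negative direction (7.69%, against 4.05% of all genes). It was ACD2, the red chlorophyll catabolite reductase (Phvul.008G280200). Golden libraries had 3.79, 5.4 and 3.83 FPKM at 18 DAF and 9.24, 9.52 and 10.3 at 14 DAF. Green libraries had 5.6, 7.1 and 3.75 FPKM at 18 DAF and 4.25, 4.5 and 5.08 at 14 DAF. Golden libraries at 14 DAF were the highest (interaction log2 -1.25, SE 0.32, adjusted p = 0.031), and the call held in 3 of 12 fits that leave out a library. Without replicate 2 of the golden line at 18 DAF 5 of the 13 were negative. The stay-green gene (non-yellowing 1, Phvul.002G153100), whose protein removes magnesium from chlorophyll, had 62.3, 114 and 73.3 FPKM in golden libraries at 18 DAF and 68.5, 84.8 and 109 at 14 DAF, against 26.1, 43.4 and 24.5 in green libraries at 18 DAF and 9.19, 16.7 and 30.3 at 14 DAF. Golden was above green in every library at both ages (interaction log2 -0.67, SE 0.49, adjusted p = 0.404). Chlorophyllase 2 (Phvul.007G278100) had 29.4, 63.1 and 33 FPKM in golden libraries at 18 DAF and 52.7, 62.2 and 46.5 at 14 DAF, against 16.7, 15.7 and 10.1 in green libraries at 18 DAF and 5.87, 9.06 and 10.5 at 14 DAF, also without overlap (interaction log2 -0.95, SE 0.41, adjusted p = 0.155). Pheophytinase, which removes the phytol tail, had -0.85 in Phvul.011G013400 (adjusted p = 0.664) and -0.11 in Phvul.005G035700 (adjusted p = 0.877). The interactions of the pheophorbide a oxygenase genes were 0.18 in Phvul.008G161000, 0.45 in Phvul.008G167850 and -0.44 in Phvul.011G086700, with adjusted p of 0.7, 0.319 and 0.539. Chlorophyllase 1 (Phvul.004G154100) was at or below 1.42 FPKM in all 12 libraries.

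Carotenoid genes had 1 call among 23, in the negative direction (4.35%, against 4.05% of all genes). It was the cleavage enzyme NCED4 (Phvul.002G120600). Golden libraries had 108, 291 and 201 FPKM at 18 DAF and 332, 259 and 278 at 14 DAF. Green libraries had 160.5, 306 and 104 FPKM at 18 DAF and 47.1, 79.2 and 58.3 at 14 DAF. Those at 14 DAF were the lowest (interaction log2 -1.996, SE 0.55, adjusted p = 0.0426). NCED4 was called in 3 of 12 fits that leave out a library. Without replicate 2 of the golden line at 18 DAF 4 carotenoid genes were negative. Phytoene synthase, the first carotenoid enzyme, had the interactions -0.17, 0.19 and 0.48 in Phvul.008G195800, Phvul.006G024100 and Phvul.008G241500, and zeaxanthin epoxidase -1.08, 0.01 and 0.42 in Phvul.003G243800, Phvul.011G214600 and Phvul.002G018700. Their adjusted p were between 0.25 and 1.00.

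Among 24 carbon fixation genes 1 was positive (4.17%, against 3.33% of all genes) and 2 were negative (8.33%, against 4.05%). Without replicate 2 of the golden line at 18 DAF 3 were positive and 5 negative. The positive gene encodes a rubisco activase, which reactivates the carbon-fixing enzyme (Phvul.010G016000), and had 47.4, 93.3 and 34.7 FPKM in golden libraries at 18 DAF and 7, 24.5 and 15.9 at 14 DAF, against 5.89, 10.3 and 4.98 in green libraries at 18 DAF and 5.45, 27.6 and 70.1 at 14 DAF. At 18 DAF all golden libraries were above all green ones, and at 14 DAF the lines overlapped (interaction log2 4.31, SE 0.94, adjusted p = 0.0185). The other activase genes had -0.07 in Phvul.008G192400 (adjusted p = 0.965) and -1.19 in Phvul.001G234300 (adjusted p = 0.509). The negative genes were a carbonic anhydrase 2 (Phvul.002G071200; interaction log2 -1.96, SE 0.44, adjusted p = 0.0194) and a phosphoribulokinase and uridine kinase family gene (Phvul.003G180800; interaction log2 -1.46, SE 0.24, adjusted p = 0.00651).

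Among the diverging genes, a VQ motif gene (Phvul.005G073000), of a family that binds WRKY factors, had 23.6, 24.5 and 28.1 FPKM in golden libraries at 18 DAF and 38.5, 41.7 and 33 at 14 DAF, against 49.1, 52.3 and 39.6 in green libraries at 18 DAF and 22.5, 27.6 and 25.8 at 14 DAF. Green was higher at 18 DAF in every library and golden at 14 DAF in every library (interaction log2 -1.32, SE 0.17, adjusted p = 0.0024). Its difference thus changed sign, and it counts as diverging by size alone. In the genes that follow in this paragraph the lines changed order too, without overlap at either age. A methyltransferase gene (Phvul.009G015500) had 13.2, 11.5 and 13.5 FPKM in golden libraries at 18 DAF and 7.33, 5.96 and 6.99 at 14 DAF, against 7.57, 8.17 and 7.67 in green libraries at 18 DAF and 8.08, 9.06 and 10.2 at 14 DAF. Golden libraries at 18 DAF were the highest (interaction log2 1.27, SE 0.17, adjusted p = 0.0024). A tonoplast water channel gene (Phvul.007G151600) was the single call among 31 aquaporins (3.23% positive, against 3.33% of all genes). It had 114, 59.5 and 102 FPKM in golden libraries at 18 DAF and 42.7, 35.4 and 39.9 at 14 DAF. Green libraries had 55.5, 51.9 and 43.5 FPKM at 18 DAF and 48.7, 56.1 and 50.1 at 14 DAF. The gene rose in the golden line, and its green step had an adjusted p of 0.98 (interaction log2 1.40, SE 0.25, adjusted p = 0.00787). Sucrose synthase 4, which splits sucrose for use in sink tissue (Phvul.009G223800), had 32.2, 49.2 and 29.6 FPKM in golden libraries at 18 DAF and 71.9, 111 and 99.2 at 14 DAF, against 89, 106 and 59 in green libraries at 18 DAF and 67.5, 61 and 61.4 at 14 DAF (interaction log2 -1.59, SE 0.34, adjusted p = 0.0173).

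The largest fitted values came from genes near 0 in a group, so only their levels are given. An integrase-type DNA-binding gene (Phvul.002G267800) had 0.0513, 0.283 and 0 FPKM in golden libraries at 18 DAF and 11.5, 23.5 and 2.81 at 14 DAF, against 0.116, 3.88 and 3.3 in green libraries at 18 DAF and 0, 0 and 0 at 14 DAF. Asparagine synthase (Phvul.006G069300) had 0, 0.0793 and 0.0539 FPKM in golden libraries at 18 DAF and 29.2, 4.37 and 0.101 at 14 DAF, against 0.198, 6 and 0.277 in green libraries at 18 DAF and 0, 0.229 and 0 at 14 DAF, and replicate 1 was by far the highest in the golden line at 14 DAF. A gene for a carbohydrate-binding X8 domain protein (Phvul.001G268000) had 0.225, 0 and 0.0863 FPKM in golden libraries at 18 DAF and 0, 0 and 0 at 14 DAF, against 1.26, 0.658 and 0.892 in green libraries at 18 DAF and 40.6, 6.29 and 17.1 at 14 DAF. It was detected above 2 FPKM in the green line at 14 DAF alone. A plant natriuretic peptide gene (Phvul.009G096000) had 4.29, 0 and 0.623 FPKM in golden libraries at 18 DAF and 0, 0 and 0 at 14 DAF, against 0, 0 and 0.782 in green libraries at 18 DAF and 21.2, 3.29 and 12.7 at 14 DAF. These genes were called in 9, 6, 11 and 5 of 12 fits that leave out a library.

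The other lists were close to the shares of all genes, 3.33% positive and 4.05% negative, or held few calls. Of 116 DnaJ genes 5 were positive (4.31%) and 3 negative (2.59%). Of 62 abscisic acid genes 1 was positive (1.61%) and 2 negative (3.23%). Of 59 starch and sucrose genes 1 was positive (1.69%) and 3 negative (5.08%). Of 49 senescence and autophagy genes 1 was positive and 1 negative (2.04% each). Without replicate 2 of the golden line at 18 DAF 11 DnaJ and 11 starch and sucrose genes were negative. Among 36 phenylpropanoid and lignin genes the single call was positive (2.78%). Of 32 sugar transport genes 0 were positive (2 at an unadjusted p under 0.05 and 0 by DESeq2) and 2 negative (6.25%). Among 28 flavonoid genes 0 were called by edgeR (1 in each direction at an unadjusted p under 0.05; 1 positive by DESeq2). Of 20 tested genes of the carpel and fruit list 1 was negative (5%), the MADS-box gene Phvul.003G182800. It had 12.1, 29.9 and 20.03 FPKM in golden libraries at 18 DAF and 65.7, 70.01 and 60.4 at 14 DAF. Green libraries had 30.5, 39.96 and 15.1 FPKM at 18 DAF and 18.4, 27.4 and 20.1 at 14 DAF. The golden step of this gene was called (interaction log2 -1.87, SE 0.45, adjusted p = 0.0254). The list meant to mark seed tissue went by seed storage, late embryo, oleosin and cupin descriptions. Of its 46 tested genes 1 was positive (2.17%) and 2 negative (4.35%). Of all its 58 genes 27 were cupins, a family not limited to seeds, and 3 matched by their letters alone, a pair named FORMS APLOID AND BINUCLEATE CELLS and LEAFY. The summed FPKM of the list was 2166 to 2245 in golden libraries at 18 DAF and 2119 to 3021 at 14 DAF, against 1974 to 2382 in green libraries at 18 DAF and 2380 to 2480 at 14 DAF. Of the 58, 2 were at 0 in the 12 libraries, LEAFY being 1 of them, and 21 stayed below 1 FPKM. Of 4 oleosins, oil body proteins of seeds, 3 stayed at or below 2.81 FPKM, and Phvul.008G144500 averaged 6.60 and 6.203 FPKM in the golden line at 18 and 14 DAF, against 12.04 and 33.4 FPKM in the green line (interaction adjusted p = 0.141). The part of seed tissue in the results was not tested.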

How the data were processed

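Poly(A) RNA with an integrity number above 7.0 was sequenced as read pairs on a NovaSeq instrument, per the labels' protocols. The authors deposited estimated counts and FPKM (fragments scaled by transcript length and library size) for every gene, per the file headers. These counts hold whole numbers. No aligner, counting program, strand setting or build is given in the sources used here, so reads of overlapping, antisense or near-identical genes cannot be told apart. The 635 rows with no gene name held 2.20% to 3.97% of counts.

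Counts were fitted with edgeR 4.0.16 (R 4.3.3): its expression filter (2319 genes dropped), TMM scaling, 1 quasi-likelihood model of the 6 groups of all 18 libraries (common dispersion 0.154, 12 residual degrees of freedom) and two-sided tests, adjusted by Benjamini-Hochberg over 22805 genes. Genes were called at an adjusted p under 0.05. Each SE is the size of the fitted log2 value divided by the square root of the F statistic of its test. It is thus derived from the test and is not a separate estimate. Levels are FPKM, not TMM-scaled. Steps and line differences share libraries with the interaction. p-values measure the spread between the deposited repeats. The script was tested on simulated data.

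Members, lists and tests were chosen with earlier results of these data known. The 30 lists are patterns in descriptions; false matches in 12 were removed after values were seen, which moved some counts, and list counts are descriptions. Genes were named by rule among called genes with at least 5 FPKM in a group and a description. These were the 6 with the smallest p and the 3 with the largest fold per direction, and 3 per shape. Up to 2 called members per list and direction were added with no minimum FPKM. Set pigment and clock genes were added whatever their p. Other called members named by list were chosen after their values were seen. Alternatives were RLE scaling, no filter, an FPKM filter, limma 3.58.1 on log2(FPKM + 1) and log2(FPKM + 0.1), DESeq2 1.42.0, the 12 libraries alone, the replicate number as a block, and each library left out. Replicates were checked against repeats of 1 library: over genes with at least 20 counts in a pair, the smallest chi-square was 97.3 per gene.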

Additional observations from a re-analysis of the deposited data

Results flagged for a closer look

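The late steps of the lines differed by the test of the difference itself in 1684 genes. Among the named genes, 21 had both steps called and in opposite directions. Opposite steps in genes chosen by the difference of the steps are no separate support. The golden line rose and the green line fell in 4 of them: methyltransferase Phvul.007G248100 with an interaction log2 of 1.48, auxin response factor 4 Phvul.005G136900 with 2.61, the pectin methylesterase and inhibitor family gene Phvul.003G116900 with 3.18, and histone gene Phvul.011G069501 with 1.79. In the other 17 the golden line fell and the green line rose. Among clock and stress genes the values were -3.30 for PRR5 Phvul.009G045000, -2.57 for GIGANTEA Phvul.004G088300, -2.01 for FKF1 Phvul.002G321800, -2.01 for CCR2 Phvul.009G023700, -7.29 for WRKY40 Phvul.010G161100, -3.31 for the pathogenesis-related gene Phvul.009G135800 and -1.79 for heat shock factor A8 Phvul.002G322700. Among transporters they were -3.50 for amino acid permease 7 Phvul.006G061100, -3.08 for amino acid transporter Phvul.010G003600, -4.82 for polyol transporter Phvul.011G038700 and -4.87 for auxin efflux carrier Phvul.002G117700. The other values were -5.97 for the ethylene-forming enzyme Phvul.008G214200, -5.38 for homeobox gene Phvul.001G143500, -4.06 for maternal effect embryo arrest 59 Phvul.006G063800, -2.30 for protein kinase Phvul.002G229000, -2.13 for beta glucosidase 11 Phvul.008G097100 and -1.42 for GH3 gene Phvul.010G111400. Groups of 3 libraries were too small for a search for outlying libraries.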

How the results depend on the processing

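The 1684 calls became 1727 with RLE scaling, 1550 with no filter on low counts, 1798 with at least 1 FPKM in 3 libraries, 2042 with limma on log2(FPKM + 1) and 1890 with limma on log2(FPKM + 0.1). All of the 1684 kept their sign in every alternative in which they were tested, except 1 in limma on log2(FPKM + 1). The alternatives use the libraries on which these genes were chosen, so the kept signs are no separate support. The limma fits moved the median interaction of all genes to -0.09 and -0.14, against 0.01, and the share of positive calls to 30.8% and 29.0%. Limma on log2(FPKM + 1) gave 1414 negative, 424 diverging and 102 crossing genes. DESeq2 called 3680 genes, 1794 positive and 1886 negative, of which 2648 converged, 679 diverged and 353 crossed. A fit of the 12 libraries alone called 235, 75 positive and 160 negative, of which 141 converged, 37 diverged and 57 crossed. The spread is then estimated without the 10 DAF libraries.

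Leaving out 1 library gave 605 to 3614 calls, 265 to 1755 positive, 340 to 1859 negative, 403 to 2537 converging, 96 to 665 diverging and 99 to 412 crossing. The cause of these moves was not tested. Of the 91 called genes among the 114 named, 39 were called in all 20 alternatives and 54 in all 12 that leave out a library. Clock, NAC, WRKY, defence, heat shock, cell division and ribosomal protein lists had most of their calls in the same direction under limma on log2(FPKM + 1) and DESeq2. Limma called 6 cell division and 9 ribosomal protein genes positive, against 13 and 19, while DESeq2 called 36 and 62. With the 12 libraries alone the negative calls were 3 clock, 4 NAC, 1 WRKY (and 1 positive) and 7 defence genes, and the positive calls 2 heat shock, 2 cell division and 0 ribosomal protein genes. With the list patterns before false matches were removed, seed storage and late embryo genes had 5 positive calls in place of 1, sugar transport genes 2 in place of 0, and starch and sucrose genes 4 positive and 5 negative in place of 1 and 3.

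The labels number the replicates 1 to 3 in each group. Deviations of same-numbered libraries from their group means correlated between -0.19 and 0.18, so the numbers were not taken to pair the libraries. With the replicate number as a block 1138 genes were called, 506 of them positive and 176 diverging. Low counts limit genes near 0 in a group, WRKY40 among them. Their fitted folds depend on the small count that edgeR adds.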
